A study of Mus musculus with 20 samples.

Results

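The cytochrome P450 genes (Cyp genes) were taken as every protein-coding gene whose name begins with Cyp and a digit, leaving out the bile acid enzymes Cyp7a1, Cyp8b1 and Cyp27a1. This gave 97 of the 100 protein-coding Cyp genes, out of 22046 protein-coding genes and 54532 genes listed. They were followed by bulk RNA-Sequencing in a C57BL/6 mouse model of colorectal liver metastasis (CRLM), in which wild-type mice received 1000000 MC38 cells, a mouse colon adenocarcinoma line, through the spleen and portal vein. Controls (con) received normal saline and were taken at day 0, with 2 samples. L-con was tumor-free liver remote from the metastases at day 12, with 1 library. Tumor-centric biopsies held low tumor content (Lt, day 9), medium tumor content (Mt3 at day 9, Mt2 and Mt1 at day 11) or high tumor content (Ht, day 12, described in the Methods as more than 90% tumor), with 2 samples each and the 3 Mt groups averaged as Mt. The Methods describe the Ht libraries 1 and 3 as made identical, so they were summed to 1 sample. F4/80+TAM and CD11b+TAM were cells drawn with F4/80 or CD11b microbeads from Mt2 metastases at day 11, with 3 libraries each. The Methods give female mice aged 6 to 8 weeks and the labels give male for the tissue. Xist, expressed from the inactive X chromosome, had 0 to 3 counts in the tissue libraries and 5547 to 21805 in the sorted cells, whereas the Y-linked Ddx3y had 348 to 1421 counts in tissue and 0 in each sorted library. Tissue and sorted cells therefore differed in sex as well as in cell type. The Methods speak of biological replicates, with 2 livers per tissue group, and do not say whether the sorted libraries of one kind came from separate mice, so the p-values measure the spread between these samples.

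P450 enzymes are heme proteins of the endoplasmic reticulum and mitochondria that put an oxygen atom into their substrate, taking electrons from P450 oxidoreductase or from ferredoxin. In the liver the Cyp1 to Cyp3 families oxidize drugs, toxins and steroids, the Cyp4 family hydroxylates fatty acids and eicosanoids, and smaller families make or clear sterols, steroid hormones, vitamin D and retinoic acid. Most are made by hepatocytes, in zones around the central or the portal vein, and several differ between male and female mice.

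The members sat mostly in tandem clusters (GRCm38), with 18 on chromosome 19, 18 on chromosome 4, 15 on chromosome 7, 11 each on chromosomes 5 and 17 and 10 on chromosome 15. The 15 Cyp2c genes spanned chr19:39007019-44029208, the 9 Cyp3a genes chr5:137892932-146113287, the 8 Cyp2d genes chr15:82370527-82794294 and the 8 Cyp4a genes chr4:115242084-115621602. Of the 9 Cyp4f genes, 8 lay at chr17:32468462-32947402 and the other, Cyp4f18, lay on chromosome 8. RefSeq promoters were at hand for 75 of the 97 members (85 promoters, GRCm38.p6), and the 250 bases upstream of each start were searched. The letters CAAAGTCCA, a sequence bound by the hepatocyte factor HNF4A and searched on both strands, were in 10 of 85 member promoters (11.8%) against 0.384% of 32851 promoters. All 10 belonged to 2 clustered subfamilies, 6 of 13 Cyp2c and 4 of 9 Cyp3a members with a promoter. The 7 that were tested in the tissue are shown with the motif in capitals, each written 5′ to 3′ on the minus strand, since Cyp2c40, Cyp2c67, Cyp2c68 and Cyp2c69 share most of their flanks as well.
Cyp2c40: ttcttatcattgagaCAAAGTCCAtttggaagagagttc
Cyp2c67: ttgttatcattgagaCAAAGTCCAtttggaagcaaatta
Cyp2c68: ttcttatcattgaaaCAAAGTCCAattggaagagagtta
Cyp2c69: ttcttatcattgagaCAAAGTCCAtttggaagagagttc
Cyp2c70: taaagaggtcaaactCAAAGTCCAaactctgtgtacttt
Cyp3a11: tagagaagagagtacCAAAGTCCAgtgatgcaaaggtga
Cyp3a16: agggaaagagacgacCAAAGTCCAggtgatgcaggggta
They lie at chr19:39812836-39812874 for Cyp2c40, chr19:39649144-39649182 for Cyp2c67, chr19:39741155-39741193 for Cyp2c68, chr19:39886821-39886859 for Cyp2c69, chr19:40187327-40187365 for Cyp2c70, chr5:145879940-145879978 for Cyp3a11 and chr5:145469799-145469837 for Cyp3a16. A TATA box (TATAAA, sense strand) was in 21 of 85 member promoters (24.7%) against 7.59% of all promoters, and the promoter of Cyp2e1, the most abundant member in control liver, carries it in capitals at chr7:140763569-140763818 on the plus strand.
Cyp2e1: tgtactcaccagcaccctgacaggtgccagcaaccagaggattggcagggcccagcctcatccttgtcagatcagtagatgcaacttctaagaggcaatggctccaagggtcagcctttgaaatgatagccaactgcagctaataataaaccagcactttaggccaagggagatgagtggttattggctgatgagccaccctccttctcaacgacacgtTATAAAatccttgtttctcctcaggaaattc
The letters GAGGAAGT (both strands), bound by the myeloid factor PU.1, were in 6 of 85 member promoters (7.06%) against 2.44% of all. These were Cyp2a4, Cyp2a5, Cyp2a12, Cyp4f16, Cyp4f37 and Cyp4v3. Of the Cyp4 genes present in the sorted cells, Cyp4f16 and Cyp4v3 held the letters, and Cyp4f18, Cyp4f13 and Cyp4b1 did not. Cyp4f17, also present there, had no promoter at hand. Cyp4f16 is shown, at chr17:32536307-32536556 on the plus strand, with both matches in capitals.
Cyp4f16: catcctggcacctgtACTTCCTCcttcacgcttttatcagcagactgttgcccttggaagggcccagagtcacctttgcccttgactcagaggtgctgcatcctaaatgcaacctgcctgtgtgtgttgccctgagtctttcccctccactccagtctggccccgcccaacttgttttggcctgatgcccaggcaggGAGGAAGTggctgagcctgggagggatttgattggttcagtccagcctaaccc
A match is a run of letters and no binding was measured.

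Levels between genes are given as FPKM, reads scaled by gene length and library size, on one normalized scale for all samples. In con, 56 of 97 members had a mean of at least 1 FPKM, 46 at least 10 and 25 at least 100. The top 3 members held 44.1% and the top 20 held 88.7% of the summed P450 FPKM. Cyp2e1, which oxidizes ethanol and acetaminophen, had 2793 and 4391 FPKM in the con samples. Cyp3a11, the main drug-metabolizing Cyp3a of mouse liver, had 1846 and 1657 FPKM. Cyp2f2, which activates naphthalene and marks periportal hepatocytes, had 660 and 823 FPKM. Levels then ran without a break down the order, since Cyp2d9, Cyp2d10 and Cyp2d26 had con means of 604, 600 and 598 FPKM, and the Cyp2d9 samples (371 and 837 FPKM) spread wider than the distance between them. The rest of the 20 were Cyp2c29, Cyp2c70, Cyp2j5, Cyp3a25, Cyp1a2, Cyp2c50, Cyp2c67, Cyp4a14, Cyp2c37, Cyp2c68, Cyp4a10, Cyp2c54, Cyp2a12 and Cyp2c23, with con means from 505 down to 210 FPKM. Subfamily members are close copies of each other, so counts can be split between them, and single values within Cyp2c, Cyp2d, Cyp3a and Cyp4a are less certain than their sums.

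Members that were not seen are part of the picture too. Of the 97, 12 had 0 counts in all 20 libraries, and 30 did not pass the filter on low counts in the tissue fit, 14 of them at 0 in every tissue sample, 10 with at most 3 counts and 6 above that. Cyp11b1 and Cyp19a1, which make corticosteroids and estrogen, and Cyp24a1, which degrades vitamin D, were among those at 0. At these depths (16032085 to 18246623 counts per tissue library), the 3 counts that a 0 still allows correspond to 0.164 to 0.187 CPM (counts scaled to library size).

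**Figure D1:**
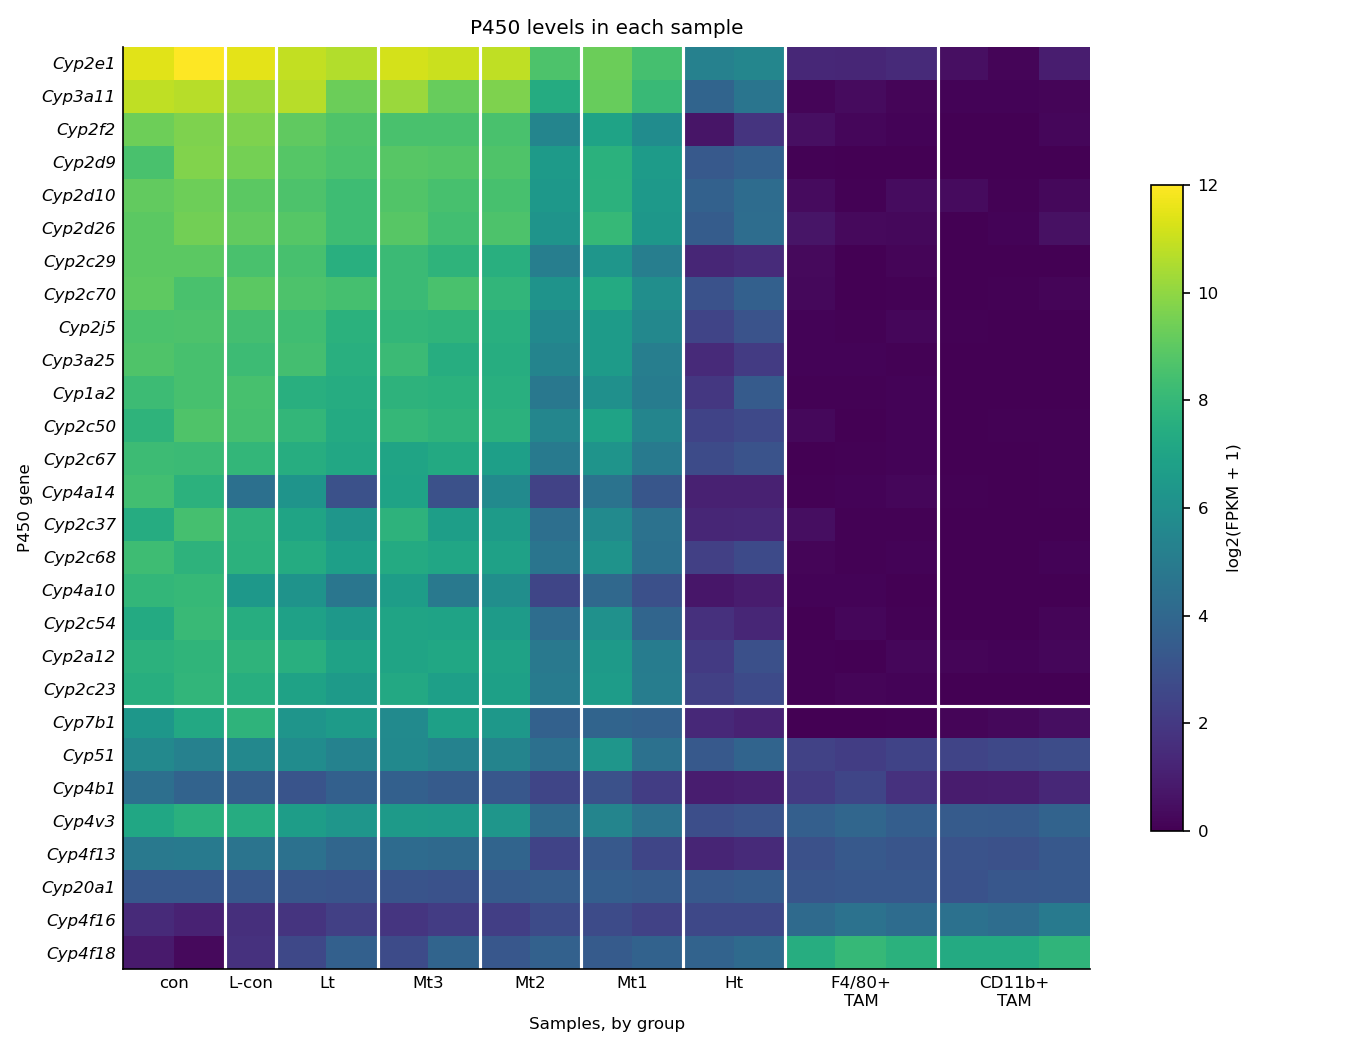
Each row is a P450 gene and each column a sample, grouped as named under the plot, with color giving log2(FPKM + 1). The upper 20 rows are the most abundant members in con, which darken toward Ht and are near 0 in both sorted populations, and the lower 8 rows hold members with other patterns, such as Cyp4f18, which is brightest in the sorted cells.

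In the high-content tumor most of the P450 genes that could be tested were lower than in control liver. The summed level of all 97 members was 12490 and 15140 FPKM in con and 196 and 273 FPKM in Ht. Of the 67 members tested with edgeR's quasi-likelihood test, 56 (83.6%) were lower and 3 were higher from con to Ht, where called means an adjusted p no higher than 0.05 with a log2 fold change of 1 or more in size. Over all 17187 genes tested, 24.1% were lower and 25.8% higher. The median log2 fold change was -5.52 over the members (-5.49 with genes at 0 set to their bound) and 0.09 over all genes. Scaled by total counts alone, which moved the median of all genes to 1.27, 55 members were lower and 6 were higher, against 13.1% and 51.3% of all genes. In bulk tissue, fewer hepatocytes and less RNA per hepatocyte cannot be told apart. The 13 hepatocyte markers (albumin, apolipoproteins, clotting factors and others) were all lower too, with a median of -5.17, and their summed level went from 176100 and 200000 CPM in con to 3602 and 5278 in Ht. The part of hepatocyte content in the P450 values was not tested on this scale.

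In the Cyp1 to Cyp3 families, here without Cyp2r1, which is counted with the vitamin D genes, 38 of 41 members tested were lower, with a median of -5.86. All 13 Cyp2c, 6 Cyp2d, 5 Cyp3a, 4 Cyp2a and 3 Cyp2j members tested were lower, with medians of -6.07, -5.46, -6.56, -6.23 and -4.64. Cyp2e1 went to 37.4 and 44.3 FPKM in Ht, a log2 fold change of -6.47 (SE 0.83, edgeR adjusted p = 0.000261), and con and Ht did not overlap. Cyp3a11 went to 13.6 and 24.1 FPKM (log2 fold change -6.56, SE 1.02, edgeR adjusted p = 0.000572). Both genes were thus the most abundant members in con and still the most abundant of the con top 20 in Ht. Cyp2f2 went further, to 0.619 and 2.53 FPKM (log2 fold change -8.91, SE 1.24, edgeR adjusted p = 0.000367). Cyp2c29, a pericentral enzyme, went from 508 and 502 FPKM to 1.43 and 1.81 FPKM (log2 fold change -8.31, SE 0.96, edgeR adjusted p = 0.00018). Cyp2b10, the classical gene induced through the receptor CAR, had 19.9 and 9.27 FPKM in con and 0 counts in both Ht samples, so it was at least 365-fold lower against a floor of 3 counts per sample, and at least 232-fold without con replicate 1. The call of Cyp2a4 rested on a single library, since this testosterone hydroxylase had 35.0 FPKM in one con sample and 0.149 in the other, against 0.0113 and 0.232 FPKM in Ht.

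Fatty acid hydroxylases of the Cyp4 family were lower in 12 of 14 members tested (median -5.30), including 6 of 6 Cyp4a members with a median of -7.69. Cyp4a10, a target of the fatty acid receptor PPARA, had 245 and 260 FPKM in con and 0.631 and 0.903 FPKM in Ht, for a log2 fold change of -8.39 (SE 1.39, edgeR adjusted p = 0.000782). Cyp4a14, of the same class, had 330 and 205 FPKM against 1.11 and 1.17 FPKM. Among the sterol genes Cyp7b1, an oxysterol hydroxylase, and Cyp39a1 were lower by 6.37 and 3.91 on the log2 scale in the fit of the same test, and Cyp51, the lanosterol demethylase of cholesterol synthesis that every cell uses, fell by 1.95 (SE 0.58, edgeR adjusted p = 0.0149). Cyp51 had 49.8 and 37.4 FPKM in con and 9.16 and 13.7 in Ht, the smallest fall among the called members, and the call was lost without con replicate 1 or Ht replicate 1 and under total-count scaling (-0.76). Cyp17a1, the 17-hydroxylase of steroid synthesis, fell by 8.15 (SE 1.33, edgeR adjusted p = 0.000721), from 38.7 and 5.66 FPKM to 0.0271 and 0.152, and by 6.14 without con replicate 1. Cyp26a1, which clears retinoic acid, fell by 4.83, with an edgeR adjusted p of 0.00141, and Cyp2r1, a 25-hydroxylase of vitamin D, fell from 9.18 and 11.5 FPKM to 0.555 and 0.762.

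The other tested members were 3 that rose and 8 that were not called. Cyp4f18, which hydroxylates leukotriene B4 in myeloid cells, had 0.839 and 0.233 FPKM in con and 13.2 and 17.0 in Ht (log2 fold change 4.80, SE 0.68, edgeR adjusted p = 0.000407). Cyp4f16, its relative from the chromosome 17 cluster, had 1.67 and 1.201 FPKM in con and 5.02 and 5.12 in Ht (log2 fold change 1.80, SE 0.34, edgeR adjusted p = 0.00147). Its neighbours Cyp4f13, Cyp4f14, Cyp4f15 and Cyp4f17 were lower in the same comparison, by 4.26, 5.99, 6.60 and 2.49 as fits on the log2 scale. Cyp27b1, which activates vitamin D, had 0 counts in both con samples and 0.312 and 0.185 FPKM in Ht, at least 2.40-fold higher. The 8 members not called were Cyp1b1, Cyp20a1, Cyp21a1, Cyp26b1, Cyp26c1, Cyp2b9, Cyp2s1 and Cyp46a1. Cyp20a1, an orphan enzyme without a settled substrate, was the steadiest of them, with 8.77 and 8.79 FPKM in con, 9.37 and 10.3 in Ht and 7.18 to 11.1 FPKM over all 19 samples. Its log2 fold change was 0.14 (SE 0.14, edgeR adjusted p = 0.394), and it was 1 of the 6 members called higher under total-count scaling. Markers of several cell types moved with the higher Cyp4f genes. The summed endothelial markers went the other way, with 396 to 428 CPM in con and 133 to 143 in Ht. Over all genes tested, 25.8% were higher from con to Ht. Of the macrophage markers 6 of 9 were higher from con to Ht, with a summed level of 434 to 656 CPM in con and 2180 to 2194 in Ht. Of the stellate cell and fibroblast markers 6 of 7 were higher, with 273 to 381 and 6249 to 7085 CPM, of the proliferation genes 4 of 4, with 8.20 to 12.8 and 819 to 836 CPM, and of the neutrophil markers 2 of 5, with 2.85 to 4.21 and 15.04 to 19.12 CPM. Their part in the Cyp4f values was not tested.

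**Figure D2:**
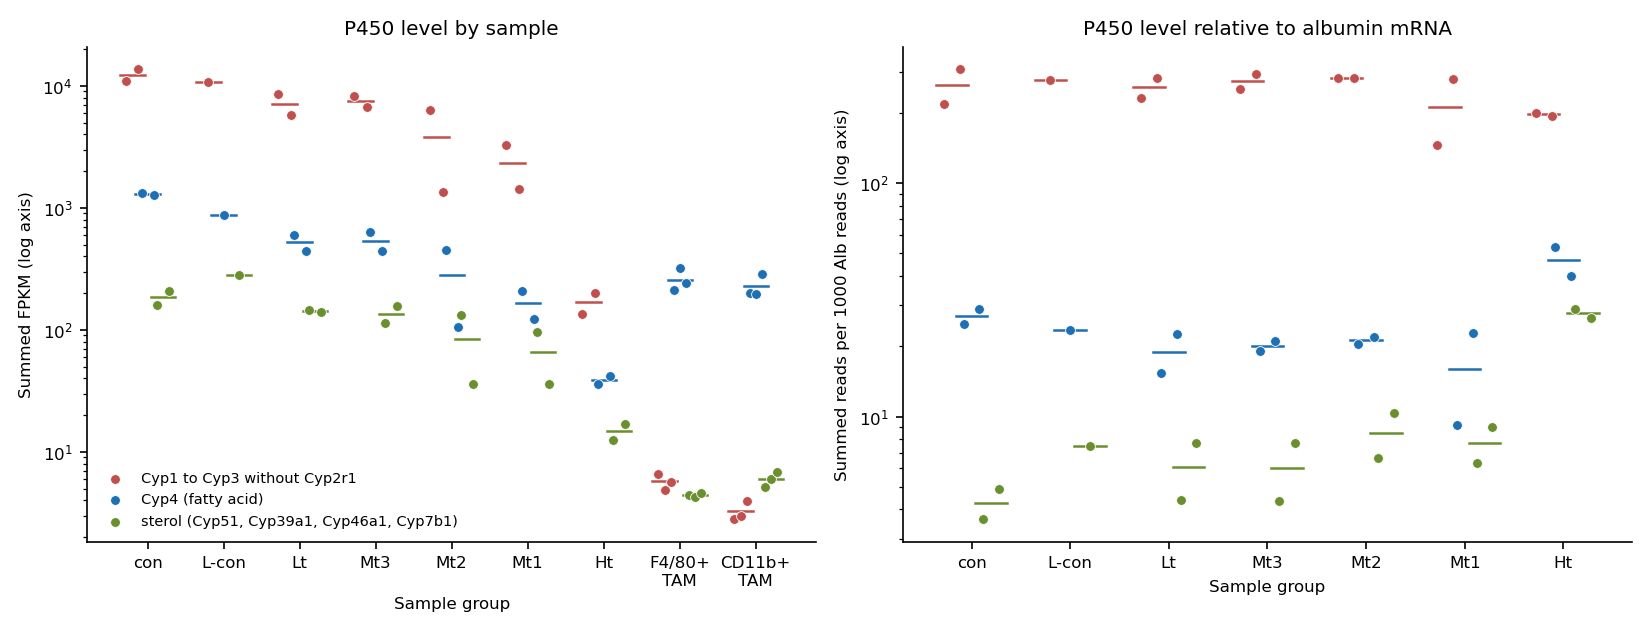
Summed P450 levels by sample on log axes, as FPKM in all groups (left) and as reads per 1000 albumin (Alb) reads in tissue (right), for the Cyp1 to Cyp3 families without Cyp2r1, the Cyp4 family and the sterol genes. Points are samples and bars are group means. On the left the Cyp1 to Cyp3 sum goes from 10930 and 13620 FPKM in con to 136 and 200 in Ht, and on the right it stays between 146 and 307 reads per 1000 Alb reads.

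Between con and Ht the groups followed each other as follows. The tumor-free L-con library had 11930 summed FPKM, close to con, and no member was called against con (0 of 67 in either direction, background 0.0% lower and 0.0233% higher). At an unadjusted p under 0.05 there were 2 such members with edgeR, against 8.13% of all genes, and DESeq2 called 0, against 0.0666% lower and 1.88% higher. The spread of that single library was taken from the other groups. Both Cyp4a genes named above had lower values there than in con, Cyp4a14 with 20.5 FPKM against 330 and 205, and Cyp4a10 with 84.2 FPKM against 245 and 260, and neither passed the test.

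In Lt the sums were 9344 and 6386 FPKM, and 57 of 67 members had a negative fold change, with a median of -0.72. Only 1 member was called lower and 2 higher, against 0.256% and 12.4% of all genes. Cyp2g1, an olfactory P450 of low level here, had 0.726 and 0.442 FPKM in con and 0.0696 and 0.125 in Lt (log2 fold change -2.53, SE 0.66, edgeR adjusted p = 0.0387). Cyp4f18 had 5.11 and 12.0 FPKM in Lt (log2 fold change 4.01, SE 0.68, edgeR adjusted p = 0.00535), and Cyp27b1 was at least 2.08-fold higher than its 0 in con. These calls were few and unsteady, since leaving out con replicate 1 left 0 lower and 1 higher, con replicate 2 left 0 and 0, and Lt replicate 2 left 0 and 1. The lower call was also lost without Lt replicate 1, either Mt1 replicate or Ht replicate 2, and there were 2 lower without either Mt2 replicate. With only the con and Lt samples in the fit, 13 members were called lower and 1 higher. Cyp4a14 again had low values, 74.2 and 6.75 FPKM in Lt, and Cyp17a1 had 4.34 and 1.76 FPKM, neither past the threshold here. Cyp4a14 was called lower in 2 of 21 settings, without the filter on low counts and with the replicate number as a block. Cyp17a1 was called in 3 of 20, those same settings and DESeq2.

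From Lt to Mt no member was called (0 of 67, background 0.0% in each direction). At an unadjusted p under 0.05 edgeR gave 12 members, all lower, against 19.1% of all genes in either direction, and DESeq2 called 3 lower and 0 higher, against 0.794% and 0.953%. The median was -0.80 and 60 of 67 fold changes were negative. The samples of one Mt group differed strongly, with summed levels of 9059 and 7349 FPKM in Mt3, 6934 and 1508 in Mt2 and 3607 and 1590 in Mt1. The low samples, Mt2 replicate 2 and Mt1 replicate 2, were also low in the hepatocyte markers, 24780 and 24770 summed CPM against 94510 to 133600 in the other 4 Mt samples. Without Mt2 replicate 1, 15 members were called lower from Lt to Mt. Cyp2e1 showed the pattern, with 2412 and 2131 FPKM in Mt3, 1842 and 404 in Mt2 and 638 and 349 in Mt1.

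The step from Mt to Ht held most of the calls, with 50 of 67 members lower and 0 higher, against 13.4% and 1.5% of all genes. No member was higher at an unadjusted p under 0.05 with edgeR, and DESeq2 called 55 lower and 0 higher, against 14.9% and 2.65% of all genes. The median was -4.02, with 34 of 41 Cyp1 to Cyp3 members other than Cyp2r1, 11 of 14 Cyp4 members and 3 of 4 sterol genes lower. Cyp2f2 and Cyp2c29 had the furthest falls among members above 0 in Ht, by 6.95 (SE 1.103) and 6.18 (SE 0.84), each with an edgeR adjusted p of 0.00861. Cyp2u1, a fatty acid hydroxylase of brain and thymus, and Cyp39a1 fell by 1.84 and 1.55 (edgeR adjusted p = 0.0318 and 0.0451), calls that held in 18 and 13 of 23 settings. Each was lost without Mt3 replicate 1, without Mt1 replicate 1 and with only the Mt and Ht samples in the fit. Without Ht replicate 1, and likewise without Ht replicate 2, 0 members were called. Cyp4f18 and Cyp4f16 were not called at this step (log2 fold changes 0.53 and 0.29, edgeR adjusted p = 0.351 and 0.400), since their Mt samples, 5.63 to 13.5 FPKM and 2.56 to 5.79 FPKM, already reached toward the Ht values.

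Albumin mRNA was used as the second yardstick, since Alb is made by hepatocytes. For a member made by hepatocytes alone, a P450 read per Alb read does not change when a biopsy holds more tumor, as far as Alb per hepatocyte holds. Cyp4f18, Cyp4f16, Cyp20a1 and Cyp51 were also present in the sorted cells and do not meet this. They are counted in the sums and medians, and their part in these was not tested. The sum over all members was 249 and 341 reads per 1000 Alb reads in the con samples and 297 and 273 in Ht, with 308 for L-con, 251 and 315 for Lt and 163 to 324 for Mt between them. Relative to Alb, 4 of 67 members were called lower and 13 higher from con to Ht, against 0.186% and 91.0% of all genes, whose median moved by 5.99. The 13 higher members (19.4%) were a smaller share than that of all genes, and the members' own median was 0.30. From Mt to Ht 3 were lower and 16 higher, against 0.151% and 90.8%. The lower ones were Cyp2b10, Cyp2f2 (-2.73, edgeR adjusted p = 0.00468) and Cyp2c29 (-1.85, edgeR adjusted p = 0.0306), and 0 of them were called without Ht replicate 1 and 1 without Ht replicate 2. Cyp2c29 was called in 11 of 20 settings. Its call was also lost with Ht 3 left out of the sum and without either replicate of con, Lt or Mt3. Cyp2f2 was called in 19 of 20 and Cyp2b10 in 17 of 19. From con to L-con and from Lt to Mt no member was called by edgeR (backgrounds 0.0%) or by DESeq2, and 2 and 1 had an unadjusted p under 0.05 with edgeR, against 2.14% and 6.13% of all genes. From con to Lt, Cyp2a4 was called lower, resting on the single con sample named above, and Cyp4f18 higher, against 0.00582% and 4.17%, and neither call held without con replicate 1, con replicate 2 or Lt replicate 2.

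**Figure D3:**
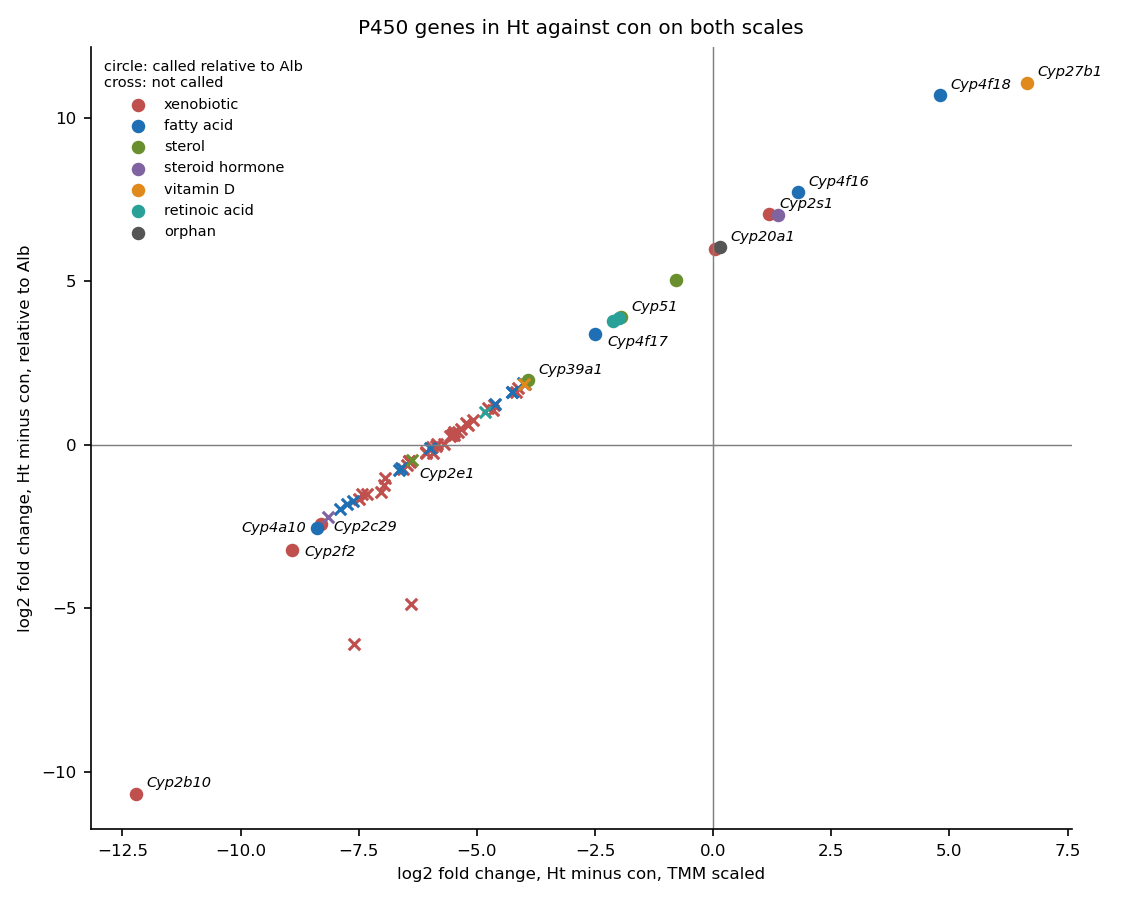
Each point is a tested P450 gene, placed by its log2 fold change from con to Ht on the normalized (TMM) scale (horizontal) and relative to Alb (vertical), colored by role, with circles for genes called relative to Alb and crosses for the others. The bulk of the family lies near 0 on the vertical axis, with Cyp2f2, Cyp2c29, Cyp4a10 and Cyp2b10 below and Cyp4f18, Cyp27b1 and Cyp4f16 at the top. Cyp2b10 and Cyp27b1 are at 0 in one group, so their places are fits and not measured folds.

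Single abundant enzymes are given next on the Alb scale. Cyp2e1 had 45.0 and 83.5 reads per 1000 Alb reads in con and 47.3 and 36.4 in Ht, with overlapping groups and a log2 difference of -0.62 (SE 0.83, edgeR adjusted p = 0.477). Cyp3a11 had 70.2 and 74.4 in con and 40.5 and 46.7 in Ht, which did not pass the test either (-0.73, SE 0.81, edgeR adjusted p = 0.389). Cyp1a2, a pericentral enzyme that oxidizes caffeine, had 4.43 and 6.37 in con and 3.31 and 7.64 in Ht. Set against these, Cyp2f2 had 9.98 and 14.7 reads per 1000 Alb reads in con and 0.733 and 1.95 in Ht, and fell by 3.20 on the log2 scale (SE 0.98, edgeR adjusted p = 0.00308). Cyp2c29 had 11.6 and 13.6 against 2.56 and 2.10, and fell by 2.43 (SE 0.92, edgeR adjusted p = 0.0138). Leaving out Ht replicate 1 ended the call of Cyp2f2, and that of Cyp2c29 was lost without Ht replicate 1, Ht replicate 2 or con replicate 2. Cyp2c37, another pericentral enzyme, was not called (-1.64, edgeR adjusted p = 0.0914). Cyp2b10, at 0.314 and 0.173 in con and 0 in Ht, was the other member called lower besides Cyp4a10. Leaving out Ht replicate 1 left 1 member lower and leaving out Ht replicate 2 left 2, while 15 were lower when the mean of the hepatocyte markers took the place of Alb. On that reference Cyp2e1 (-1.47), Cyp3a11 (-1.58), Cyp2c37 (-2.48) and Cyp4a14 (-2.84) were also called lower. Cyp2e1 and Cyp3a11 were each called in this 1 of 20 settings, and Cyp2c37 in 3 of 20, on Alb with DESeq2 and with Ht taken as 3 libraries. With these markers the family sum in Ht was 0.537 of con.

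The Cyp4a genes varied before Ht as well. Cyp4a10 stood at 3.86 and 4.84 reads per 1000 Alb reads in the controls against 1.81 for L-con, 1.44 and 1.05 for Lt, 0.536 to 2.54 for Mt and 0.779 and 0.725 for Ht, so that every sample of the tumor-bearing livers lay under both con samples. From con to Ht it fell by 2.53 (SE 0.97, edgeR adjusted p = 0.0155), a call lost without con replicate 2, Ht replicate 1 or Ht replicate 2. For Cyp4a14 the controls were at 6.40 and 4.71 against 0.544 for L-con, 1.88 and 0.342 for Lt, 0.319 to 3.70 for Mt and 1.70 and 1.16 for Ht. Its tests against con did not pass (edgeR adjusted p = 0.0807 for Ht and 0.258 for Lt), although from con to Ht it was called lower in 4 of 20 settings. These were the hepatocyte markers, the replicate number as a block and either Mt2 replicate left out.

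**Figure D4:**
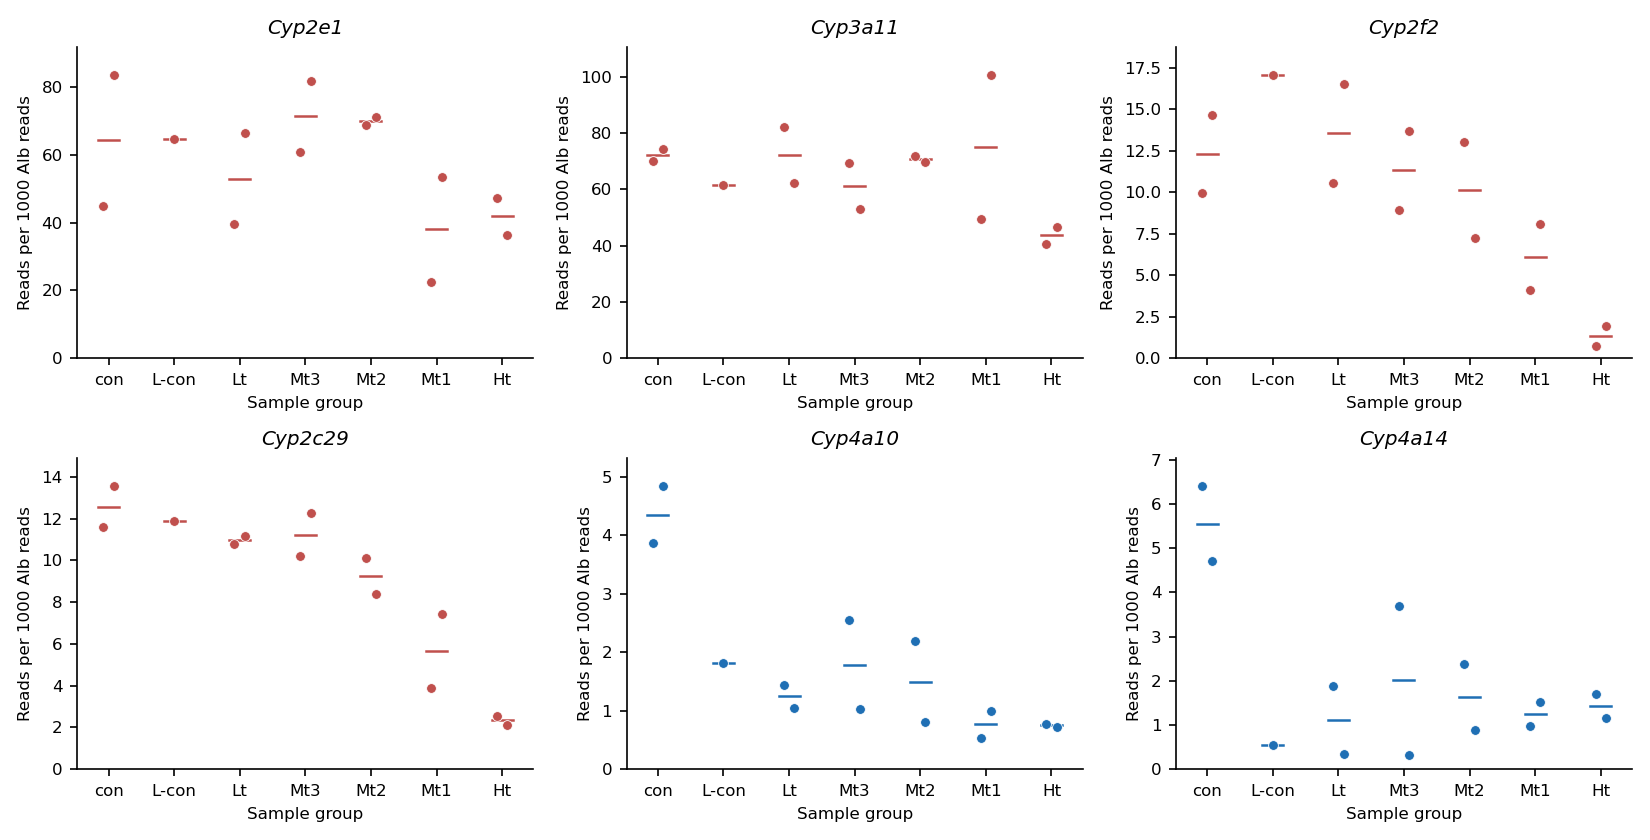
Reads per 1000 Alb reads in each tissue sample for 6 abundant P450 genes, with points for samples, bars for group means and axes starting at 0. Cyp2e1 and Cyp3a11 in Ht lie within or just under the other groups, Cyp2f2 and Cyp2c29 are lowest in Ht, and Cyp4a10 and Cyp4a14 are highest in con.

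The 13 members called higher relative to Alb in Ht were Cyp4f18, Cyp27b1, Cyp4f16, Cyp2s1, Cyp21a1, Cyp20a1, Cyp1b1, Cyp46a1, Cyp51, Cyp26b1, Cyp26c1, Cyp4f17 and Cyp39a1. Cyp4f18 had 0.0116 and 0.0038 reads per 1000 Alb reads in con and 14.3 and 12.0 in Ht. Cyp51 had 1.64 and 1.45 in con and 23.7 and 23.0 in Ht (log2 fold change 3.91, SE 0.98, edgeR adjusted p = 0.000498), so its direction depended on the scale. The same held for Cyp4f17 and Cyp39a1, lower on the TMM scale and higher relative to Alb by 3.40 and 1.99.

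The F4/80+TAM and CD11b+TAM populations held a short list of P450 transcripts. Only 10 members reached a mean of 1 FPKM in F4/80+TAM and 9 in CD11b+TAM, and Cyp4f18 alone made up 76.9% and 74.5% of the summed FPKM. Cyp4f18 had 174, 266 and 200 FPKM in F4/80+TAM and 162, 159 and 234 in CD11b+TAM, against 8.42 and 12.1 in the Mt2 tissue. It was higher by 4.37 (SE 0.51, edgeR adjusted p = 6.04e-06) and by 4.17 (SE 0.51, edgeR adjusted p = 7.56e-06). Cyp4f16 followed with 16.6 to 21.99 and 18.5 to 29.7 FPKM, against 3.69 and 5.69 in Mt2, and was higher by 2.00 (SE 0.29) and 2.29 (SE 0.29) in the same test. Cyp4f13 had 6.98 to 9.16 and 6.75 to 8.87 FPKM, within the 4.35 to 13.6 of the Mt2 samples, and was not called. Cyp4v3, a fatty acid hydroxylase, had 10.9 to 14.4 and 9.67 to 12.9 FPKM, against 78.2 and 16.7 in Mt2, and was lower by 1.96 and 2.13 (edgeR adjusted p = 0.00204 and 0.00107). Both calls rested on Mt2 replicate 1, without which the differences were -0.45 and -0.62 and were not called. Cyp20a1 (7.18 to 9.01 FPKM) and Cyp51 (3.46 to 5.96 FPKM) were also present in each sorted library, Cyp20a1 not called and Cyp51 lower by 2.99 and 2.61. Cyp4f17 (0.758 to 2.00 FPKM) and Cyp2r1 (0.767 to 1.70 FPKM) completed the list beside Cyp4b1 and Cyp2e1, and Cyp2r1 was lower than in Mt2 by 2.32 and 2.06. Without Mt2 replicate 1 these became -1.42 and -1.15, the second no longer called.

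**Figure D5:**
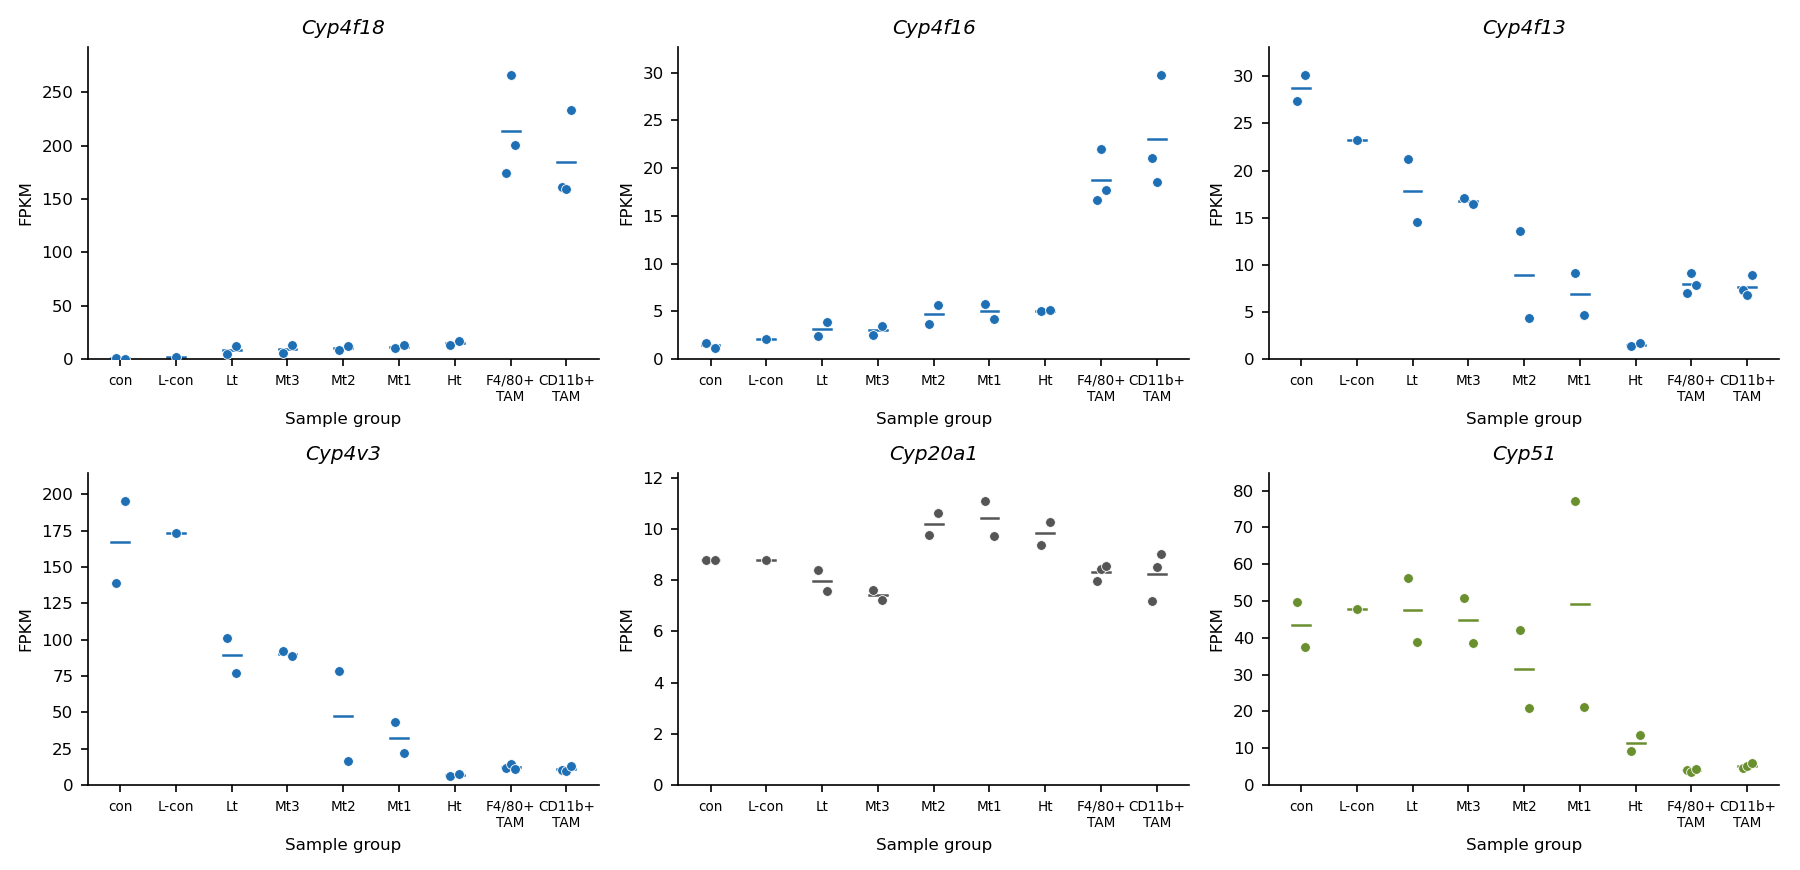
FPKM in every sample for 6 P450 genes detected in the sorted macrophages, with points for samples, bars for group means and axes starting at 0. Cyp4f18 and Cyp4f16 are highest in both sorted populations, Cyp4f13 in con, Cyp4v3 in con and L-con, Cyp20a1 stays between 7.18 and 11.1, and Cyp51 is lowest in the sorted cells.

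Across the 69 members tested together, 54 were lower and 2 higher in F4/80+TAM than in Mt2 tissue, against 25.2% and 17.2% of all genes, and 56 were lower and 4 higher in CD11b+TAM, against 26.3% and 17.6%. The medians were -6.89 and -7.54, or -5.35 and -6.44 with genes at 0 set to their bound. CD11b+TAM also had more of Cyp2s1, a P450 of lung and skin, with 0.376 to 0.566 FPKM against 0.0527 and 0.0942 in Mt2, and of Cyp2ab1, with 0.151 to 0.525 FPKM against 0.0207 and 0, a call lost without Mt2 replicate 2. Cyp2ab1, with at most 6 counts in a tissue sample, did not pass the filter in the tissue fit. It entered the joint fit through its counts in the sorted libraries, where it is high, so its call is not independent of the filter. Neutrophil markers were higher in the CD11b+TAM libraries (5 of 5), with a summed level of 1025, 948 and 3456 CPM in CD11b+TAM against 14.7 and 21.8 in Mt2 and 154 to 427 in F4/80+TAM, and their part in the Cyp2s1 and Cyp2ab1 values was not tested. The sorted libraries kept few hepatocyte reads, with a summed hepatocyte marker level of 71.2 to 339 CPM. Table, kind of sample and sex cannot be told apart in these comparisons.

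Members known to differ between male and female liver were looked at apart, beside Xist and Ddx3y. Cyp2d9, a testosterone hydroxylase of male liver, had 866 to 25802 counts in the tissue samples and 0 to 2 in the sorted libraries, or 7.36 to 20.6 and 0.0 to 0.621 reads per 1000 Alb reads. In Mt2 it had 413 and 91.5 FPKM, against at most 0.0380 in a sorted library. Cyp4a12a, a male arachidonic acid hydroxylase, had 54 to 5891 counts in tissue and 0 in each sorted library, at least 567-fold lower in F4/80+TAM and at least 571-fold lower in CD11b+TAM than in Mt2. Without Mt2 replicate 1 these bounds were 208-fold and 209-fold. The female-biased Cyp2a4 had 3 to 10 counts in every sorted library and 0 to 665 in the tissue samples. Per 1000 Alb reads these were 1.75 to 4.35 and 0.0 to 0.455, with only 771 to 4156 Alb reads in a sorted library. By FPKM, Cyp2a4 had 0.114 to 0.291 in F4/80+TAM and 0.0730 to 0.134 in CD11b+TAM. The Mt2 samples had 0.0749 and 0.0730 FPKM, and all tissue samples ranged from 0.0 to 35.0. Of the other female-biased members, Cyp2b9, Cyp2b13, Cyp3a41a, Cyp3a41b and Cyp3a44 had at most 2 counts in any sorted library, too few to compare. Female-biased Cyp2c69 had 5 to 364 counts in the tissue libraries and 0 to 4 in the sorted ones. Cyp3a16, also female-biased, had 0 to 63 and 0. Male-biased Cyp4a12b had 8 to 1922 and 0. Male-biased Cyp7b1 had 72 to 5639 counts in tissue, 0 to 2 in F4/80+TAM and 6 to 13 in CD11b+TAM. These values moved with both sex and cell type, and the part of each was not tested.

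Between the sorted populations no member was called (0 of 17 tested from CD11b+TAM to F4/80+TAM, background 0.0701% lower and 0.00701% higher). At an unadjusted p under 0.05 edgeR gave 6 members, 3 in each direction, against 10.5% of all genes, and DESeq2 called 1 lower and 1 higher, against 1.17% and 0.933%. Without CD11b+TAM replicate 3, 1 member was called lower. Cyp2s1 had 0.558, 0.566 and 0.376 FPKM in CD11b+TAM and 0.0307, 0.0697 and 0.130 in F4/80+TAM, without overlap (log2 fold change -2.73, SE 0.50, edgeR adjusted p = 0.0898). Cyp4b1, which activates protoxins in lung and kidney, had the opposite order, with 0.905, 0.957 and 1.52 FPKM in CD11b+TAM and 3.18, 4.64 and 2.32 in F4/80+TAM (1.54, SE 0.34, edgeR adjusted p = 0.158). The summed endothelial markers had the same order, with 52.9 to 59.0 CPM in CD11b+TAM and 114 to 231 in F4/80+TAM, and 0 of 6 were called between the populations. Their part in the Cyp4b1 values was not tested. Cyp4f18 overlapped between the populations (0.15, SE 0.23, edgeR adjusted p = 0.766). Cyp2e1 had 0.137 to 0.941 FPKM in CD11b+TAM and 1.44 to 1.69 in F4/80+TAM, and the summed hepatocyte markers were 71.2 to 232 and 195 to 339 CPM in the same libraries. The part of residual hepatocyte RNA in it was not tested.

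The partners that P450 enzymes depend on were lower in Ht as well. All 7 electron donors were lower from con to Ht (median -3.10), as were 7 of 8 heme synthesis genes (median -2.07) and 5 of 6 sensors (median -3.86), against the 24.1% of all genes. Por, the reductase that feeds microsomal P450 enzymes, fell by 3.10 (SE 0.58, edgeR adjusted p = 0.00149), and Alas1, the first step of heme synthesis, by 2.66 (SE 0.84, edgeR adjusted p = 0.0196). Of the sensors that switch P450 genes on, Nr1i3 (CAR), Nr1i2 (PXR) and Ppara fell by 4.72, 4.80 and 5.51 in that test. Arnt, the partner of the dioxin receptor, was under the fold threshold (0.42). Relative to Alb, 6 of 7 electron donors and 8 of 8 heme genes were higher, against 91.0% of all genes, as were 3 of 6 sensors, Arnt, Ahr and Rxra, at 6.33, 4.09 and 2.89. Nr1i2, Nr1i3 and Ppara were not called, at 0.97, 1.13 and 0.33. Periportal genes outside the family were lower on the TMM scale in 6 of 6. Relative to Alb only 2 of 6 were called lower and 0 higher, with a median of -1.08, and the rest were not called. The lower ones were Hal and Sds, which degrade histidine and serine and fell by 2.65 and 2.13 (edgeR adjusted p = 0.0096 and 0.036). Pericentral genes outside the family were lower in 5 of 6, and relative to Alb 2 of them were higher, Axin2 and Glul. Glul, the glutamine synthetase of the cells around the central vein, was higher by 2.94 (SE 0.94, edgeR adjusted p = 0.00451) and had 337 to 634 CPM in the sorted cells and 124 and 134 in Ht. Axin2 was not called on the TMM scale (0.56).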

How the data were processed

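Total RNA of 14 tissue and 6 sorted-cell libraries was sequenced. The authors aligned reads with HISAT2 2.0.5 and counted them per gene with featureCounts 1.5.0-p3, per the submitters' processing notes, and deposited raw counts, which were the values used here. FPKM was computed here from those counts and the gene lengths in the tables. Tissue totals were 16032085 to 18246623 and sorted totals 17785496 to 20548370 counts. A count of 0 was given a floor of 3 counts per library, which covers counting error only.

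edgeR 4.0.16 (R 4.3.3) was run with TMM scaling, filterByExpr and the quasi-likelihood F test (two-sided) over all genes, and p-values were adjusted by Benjamini-Hochberg. Calls needed an adjusted p no higher than 0.05 and a log2 fold change of 1 or more in size. All 13 tissue samples entered 1 fit (17187 genes), all 19 samples a joint fit for Mt2 against sorted cells (18407 genes) and 6 libraries the sorted fit (14263 genes). Relative to Alb, the Alb count replaced the library size. DESeq2 1.42.0, other scalings, filters, references and leaving out each replicate were alternatives. On simulated counts for con to Ht (17187 genes), 97.5% of 200 changed genes were recovered, and 41.5% relative to Alb. The simulation gave all genes the same fixed dispersion and left Alb unchanged between groups. These shares therefore do not give the recovery in the real samples.

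The libraries Ht 1 and Ht 3 were summed because the Methods call them identical, although their counts differed beyond sampling noise, with a chi-square per degree of freedom of 30.3 over 15284 genes, against 29.1 for Ht 1 and Ht 2 and 13.2 for Ht 2 and Ht 3. The members and gene lists were chosen with earlier results of these data known. Named with values were the 20 members highest in con, the 3 called members with the largest fold changes in each direction per comparison, called members against the majority, up to 10 members with at least 1 FPKM in sorted cells, members higher in Ht than in con, and zonation and sex-biased members. The sorted-cell fold changes of Cyp4a12b, Cyp2c29 and Cyp2c37, among the largest falls against Mt2, were left out. Members whose values are given outside this rule, such as Cyp17a1, Cyp26a1, Cyp7b1, Cyp39a1 and Cyp2u1, were picked for their roles or after their values were seen.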

Additional observations from a re-analysis of the deposited data

Results flagged for a closer look

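Among the 6 Mt samples, replicate 1 of Mt1 stood apart in summed P450 reads per 1000 Alb reads. It had 163 for all members, 146 for the Cyp1 to Cyp3 families without Cyp2r1 and 9.18 for the Cyp4 family, each below the other 5 Mt samples by a gap over Dixon's 95% limit for 6 values. Of 19 values checked this way, chance would flag about 1 in 20, and these sums share genes and the same Alb reads.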

How the results depend on the processing

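The calls of con to Ht, of Lt to Mt and of the sorted cells against Mt2 stayed within 1.5 times of their counts under most alternatives. The lower calls of con to Lt did not. Where a count moved, the cause was not tested. From con to Lt, the members called lower were 0 with at least 10 counts in every sample, 5 with DESeq2, 16 with no filter, 13 with only the groups compared, 5 with a replicate block and 0 with total-count scaling, and those higher were 0 with at least 10 counts and 1 with only the groups compared. With no filter, 6 were lower and 2 higher from con to L-con, and 13 lower and 1 higher from Lt to Mt, where DESeq2 called 3 lower. With at least 10 counts in every sample, 1 was higher from con to Ht, and 6 were lower and 1 higher in each sorted population against Mt2; total-count scaling gave 6 higher from con to Ht. Between sorted populations DESeq2 and no filter each gave 1 lower and 1 higher. Relative to Alb, con to Lt gave 0 lower with at least 10 counts, 0 with the hepatocyte list and 2 with the block, and 0 higher with at least 10 counts, 2 with DESeq2 and 2 with the block. Mt to Ht gave 5 lower with DESeq2, 9 with the hepatocyte list, and 10 higher with at least 10 counts. From con to Ht 7 were lower with DESeq2, 15 with the hepatocyte list and 7 with Ht as 3 libraries. Per hepatocyte-list mean, the summed level over con was 0.537 in Ht, 0.673 in Lt, 0.792 in Mt3 and 0.688 in Mt2.

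Leaving out 1 replicate gave 0 to 2 lower and 0 to 3 higher from con to Lt, 0 and 0 from con to L-con, 0 to 15 lower from Lt to Mt, 0 to 54 lower from Mt to Ht, and 52 to 58 lower and 3 to 4 higher from con to Ht. F4/80+TAM gave 46 to 55 lower and 2 to 3 higher, CD11b+TAM 48 to 56 and 3 to 4, and the sorted comparison 0 to 1 lower. Relative to Alb the ranges were 0 to 1 and 0 to 2 for con to Lt, 0 to 3 and 13 to 19 for Mt to Ht, and 1 to 6 and 10 to 16 for con to Ht.

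Some fold changes near 0 turned sign. Cyp4f18 between sorted populations was -0.033 without F4/80+TAM replicate 2 and at most 0.37 without CD11b+TAM replicate 3. Cyp4f13 against Mt2 was 0.81 in CD11b+TAM and 0.88 in F4/80+TAM without Mt2 replicate 1, -0.80 and -0.72 without Mt2 replicate 2, and 0.0012 in F4/80+TAM with total-count scaling. From con to Ht, Cyp1b1 was -0.24 with Ht 3 left out of the sum, -0.31 without con replicate 2, -0.10 without Ht replicate 1 and 0.50 without con replicate 1, and Cyp21a1 was -0.20 without Ht replicate 2 and 2.15 without Ht replicate 1. Relative to Alb, Cyp1a2 was -0.79 with the hepatocyte list, -0.20 with Ht as 3 libraries, -0.052 with Ht 3 left out, -0.049 with the block, -0.22 without con replicate 1, -0.71 without Ht replicate 2 and 0.50 without Ht replicate 1, and Cyp7b1 was 0.19 without con replicate 2 and -1.04 without Ht replicate 1.

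No source says that a replicate number marks a shared animal or batch, so the numbers were not used to pair samples. Same-numbered samples deviated together between Lt and the Mt groups (correlation 0.28 to 0.58) and not in the other pairs of groups compared (-0.15 for con and Lt, -0.36 to -0.23 for the Mt groups and Ht). With 2 samples per tissue group, both numbers give the same correlation, and its sign turns if the numbers of 1 group are swapped. These correlations therefore cannot show whether a number marks a shared animal or batch. With the number as a block, 57 members were lower and 3 higher from con to Ht, 53 and 0 from Mt to Ht, and 0 and 0 from Lt to Mt. Depth limits members under the floor, and single-copy values within the tandem clusters are limited by reads shared between copies.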
